A study of Mus musculus with 90 samples.

Results

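The TRIM (tripartite motif) genes described here were taken by name, as every mouse gene whose symbol is Trim followed by a number and at most 1 letter, with at least 90 counts over the 90 samples. Such a symbol was carried by 68 of 53697 genes, and 35 of them reached 90 counts. Of the other 33, 9 had 0 counts and the highest total in 1 line was the 74 counts of Trim62 in YUMM2.1 (the minimum of 90 counts leaves these out). The measure was 3′ digital gene expression, in which sequencing starts near the 3′ end of a transcript, so that a transcript gives about 1 countable fragment whatever its length and levels were not divided by length.

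TRIM proteins are a large family that share a RING finger, B-box zinc fingers and a coiled coil at the N-terminal end, followed by a variable C-terminal region such as a PRY-SPRY, NHL or PHD-bromo domain. Most members are E3 ubiquitin ligases that work with E2 enzymes to attach ubiquitin to target proteins. Several act in antiviral sensing: TRIM25 ubiquitinates the RNA sensor RIG-I, TRIM56 acts in the cGAS-STING and TLR3 pathways, and TRIM21 binds antibody-coated particles in the cytosol and directs them to the proteasome. IFNγ signals through JAK1 and JAK2, and its target promoters can hold GAS elements (IFNγ-activated sites) or ISRE elements, the latter bound by IRF proteins.

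The samples came from mouse tumour cell lines kept in culture. YUMM2.1 is a melanoma line and CT26 a colorectal carcinoma line. Each was grown in RPMI-based complete medium with IFNγ at 50 IU/mL for 1, 2 or 3 weeks, or with BSA carrier at 0 IU/mL of IFNγ. A control of 0 weeks and cells that met IFNγ for the first time for 2 h or 24 h (naive cells) completed the short arm. After 1, 2 and 3 weeks of IFNγ, further cells received fresh IFNγ for 2 h or 24 h (rechallenge). All cells were replated for the last 48 h. This gave 15 groups of 3 replicates in each line, 45 samples a line. The RNA came from triplicate experiments, and the study describes its replicates in general as independent biological ones. How the 3 of a group relate is not given further, and p-values measure the spread between these samples. Each line is a single culture line, and the comparisons cannot speak for other melanomas or colon carcinomas.

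Total counts per sample ran from 274719 to 3161276 in YUMM2.1 (median 1403265) and from 295157 to 2205285 in CT26 (median 1318011). The 35 TRIM genes together took between 0.039% and 0.0826% of the counts of a YUMM2.1 sample, and between 0.0579% and 0.0857% of those of a CT26 sample. Levels are given as CPM, counts scaled to a common library total, after TMM scaling within each line. At these depths many of the values below rest on a handful of counts a sample. The third replicates of the CT26 1-week IFNγ, CT26 3-week IFNγ and YUMM2.1 3-week IFNγ groups were each below 25% of their line's median depth. Sox10, a melanocyte lineage factor, was at 12.03 to 31.7 CPM in the YUMM2.1 controls and had 0 counts in CT26, whereas Tyrp1 had 0 counts in YUMM2.1. The other melanocyte markers were low in both lines, and the control medians of Mitf (1.21 against 2.07 CPM) and Dct (0.955 against 2.05 CPM) were lower in YUMM2.1 than in CT26. Krt20, an intestinal keratin, was at 44.8 to 63.5 CPM in the CT26 controls, whereas the epithelial markers Epcam, Cdh1 and Vil1 had 0 counts in CT26. Among markers of other cells, Cd3e of T cells had 0 counts in both lines and the endothelial Cdh5 had 3 counts in YUMM2.1 and 0 in CT26, whereas Pecam1, known from endothelium, had control medians of 365.8 CPM (YUMM2.1) and 293.1 CPM (CT26). The macrophage marker Cd68 had control medians of 5.96 and 2.19 CPM, Lyz2 at most 2.07 and 2.95 CPM in any control, and the leukocyte marker Ptprc at most 1.02 and 2.89 CPM. The part of these genes in the results was not tested.

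The sequence upstream of the start was searched for the short words that interferon-activated factors are known to bind, as a description and not as a map of bound sites. The windows below are the 250 bases before a RefSeq transcript start in GRCm38.p6, 5′ to 3′ on the gene's own strand. Capitals mark matches to the ISRE-like word, GAAA, 2 free bases and GAAA, read on either strand (TTTC, 2 free bases and TTTC on the other), and windows without capitals hold neither word. Trim21, Trim30a, Trim30b and Trim12c are shown because they are relatives on chromosome 7 of which Trim30b alone was not called under IFNγ in CT26, and Trim26 because it held the word at 2 overlapping places.
Trim12c, chr7:104353350-104353599, minus strand: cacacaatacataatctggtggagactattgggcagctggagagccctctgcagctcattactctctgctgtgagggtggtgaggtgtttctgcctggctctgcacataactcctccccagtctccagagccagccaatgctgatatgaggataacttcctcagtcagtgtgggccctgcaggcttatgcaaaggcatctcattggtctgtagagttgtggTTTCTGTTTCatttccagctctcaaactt
Trim30a, chr7:104465194-104465443, minus strand: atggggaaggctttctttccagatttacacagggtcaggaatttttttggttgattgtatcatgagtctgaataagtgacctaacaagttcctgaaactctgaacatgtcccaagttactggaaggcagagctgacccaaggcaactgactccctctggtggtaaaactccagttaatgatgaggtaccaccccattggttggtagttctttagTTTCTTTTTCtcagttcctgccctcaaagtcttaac
Trim30b, chr7:104358647-104358896, minus strand: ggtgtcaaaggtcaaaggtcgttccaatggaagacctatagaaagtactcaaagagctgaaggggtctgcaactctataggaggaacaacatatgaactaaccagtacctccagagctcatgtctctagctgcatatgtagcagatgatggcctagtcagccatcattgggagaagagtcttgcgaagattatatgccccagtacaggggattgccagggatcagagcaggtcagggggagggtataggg
Trim21, chr7:102565483-102565732, minus strand: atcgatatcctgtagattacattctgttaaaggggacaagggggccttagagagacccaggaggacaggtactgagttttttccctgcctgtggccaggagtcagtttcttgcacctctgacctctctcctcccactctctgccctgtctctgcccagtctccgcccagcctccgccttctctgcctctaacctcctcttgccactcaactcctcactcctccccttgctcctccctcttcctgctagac
Trim26, chr17:36836896-36837145, plus strand: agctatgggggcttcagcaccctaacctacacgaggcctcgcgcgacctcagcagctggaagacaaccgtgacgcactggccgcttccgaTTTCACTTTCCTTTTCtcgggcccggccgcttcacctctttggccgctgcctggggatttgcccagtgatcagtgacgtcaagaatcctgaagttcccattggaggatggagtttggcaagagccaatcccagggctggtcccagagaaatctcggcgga
Windows were given for 27 of the 35 genes, and 3 of the 27 held the ISRE-like word: Trim12c at -29 from the start, Trim30a at -36 and Trim26 at -160 and -154. A second window of Trim30a, upstream of another start, held none. Counted by window, 3 of the 36 windows of these genes held the word, beside 2.98% of 32851 mouse promoter windows of the same length. The GAS-like word TTCNNNGAA, which reads the same on both strands, was found in 7.02% of the 32851 windows. Among the 27 genes only Trim45 held it, in 1 of the 36 windows. Trim21, Trim30b, Trim25 and Trim56 held neither word in these 250 bases. Trim43b had no window in the table.

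In CT26 the genes called under IFNγ were Trim21, Trim30a, Trim12c, Trim25 and Trim56, all higher, and Trim43b, lower. Of 21 TRIM genes tested in CT26, 1 rose after 2 h (Trim21), where 0.235% of all genes tested rose and 0% fell. At 24 h 2 rose (Trim21 and Trim30a) and 0 fell, beside 1.77% of all genes called higher and 0.27% called lower. After 1 week 1 rose (Trim30a), where 0.658% of all genes rose and 0.0705% fell, and after 2 weeks 1 rose (Trim21), where 0.928% rose and 0.74% fell. After 3 weeks 5 rose and 1 fell, beside 3.44% and 3.79% of all genes. Trim21, Trim30a and Trim12c were at most 4.87, 5.50 and 3.5 CPM in any control. Trim25 had a control median of 3.77 CPM and was at most 8.12 CPM. All of these genes entered the test through IFNγ samples, so the counts called depend on the filter on low counts. The median log2 fold change of the 21 genes was 0.00 at 24 h and 0.52 at 3 weeks, against -0.02 and 0.02 over all genes tested. The CT26 controls themselves gave a median of -0.33 for the 21 genes from 0 to 3 weeks, with 7 of 21 positive and 0.00 over all genes, and both 3-week values rest on the same 3-week controls. Scaling by library totals alone moved the 3-week median of all genes to 0.22 and kept the count of TRIM genes called at 6.

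In YUMM2.1 25 TRIM genes could be tested and 1 was called in the 5 comparisons of IFNγ with control. This was Trim21 at 24 h, where 0.855% of all genes rose and 0.0313% fell. Trim21 was at most 0.888 CPM in any YUMM2.1 control, so it too entered the test through IFNγ samples. No TRIM gene was called by edgeR after 2 h, 1 week, 2 weeks or 3 weeks, where 0.24%, 0.73%, 1.12% and 0.97% of all genes were called in either direction. At an unadjusted p under 0.05 there were 1, 1, 3 and 4 TRIM genes of 25 in these comparisons, beside 3.63%, 5.94%, 7.19% and 10.5% of all genes, and DESeq2 also called 0 in each. The median log2 fold change of the 25 genes was 0.17 at 24 h and 0.43 at 3 weeks, against 0.02 and 0.00 over all genes. Irf1, which stands at the head of the IFNγ response, rose in both lines at 24 h. Its log2 fold change was 2.82 (SE 0.23) in YUMM2.1 and 2.31 (SE 0.27) in CT26. Comparisons that use the same week's controls of a line are not independent of each other, and those after rechallenge share the unchallenged group.

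**Figure D1:**
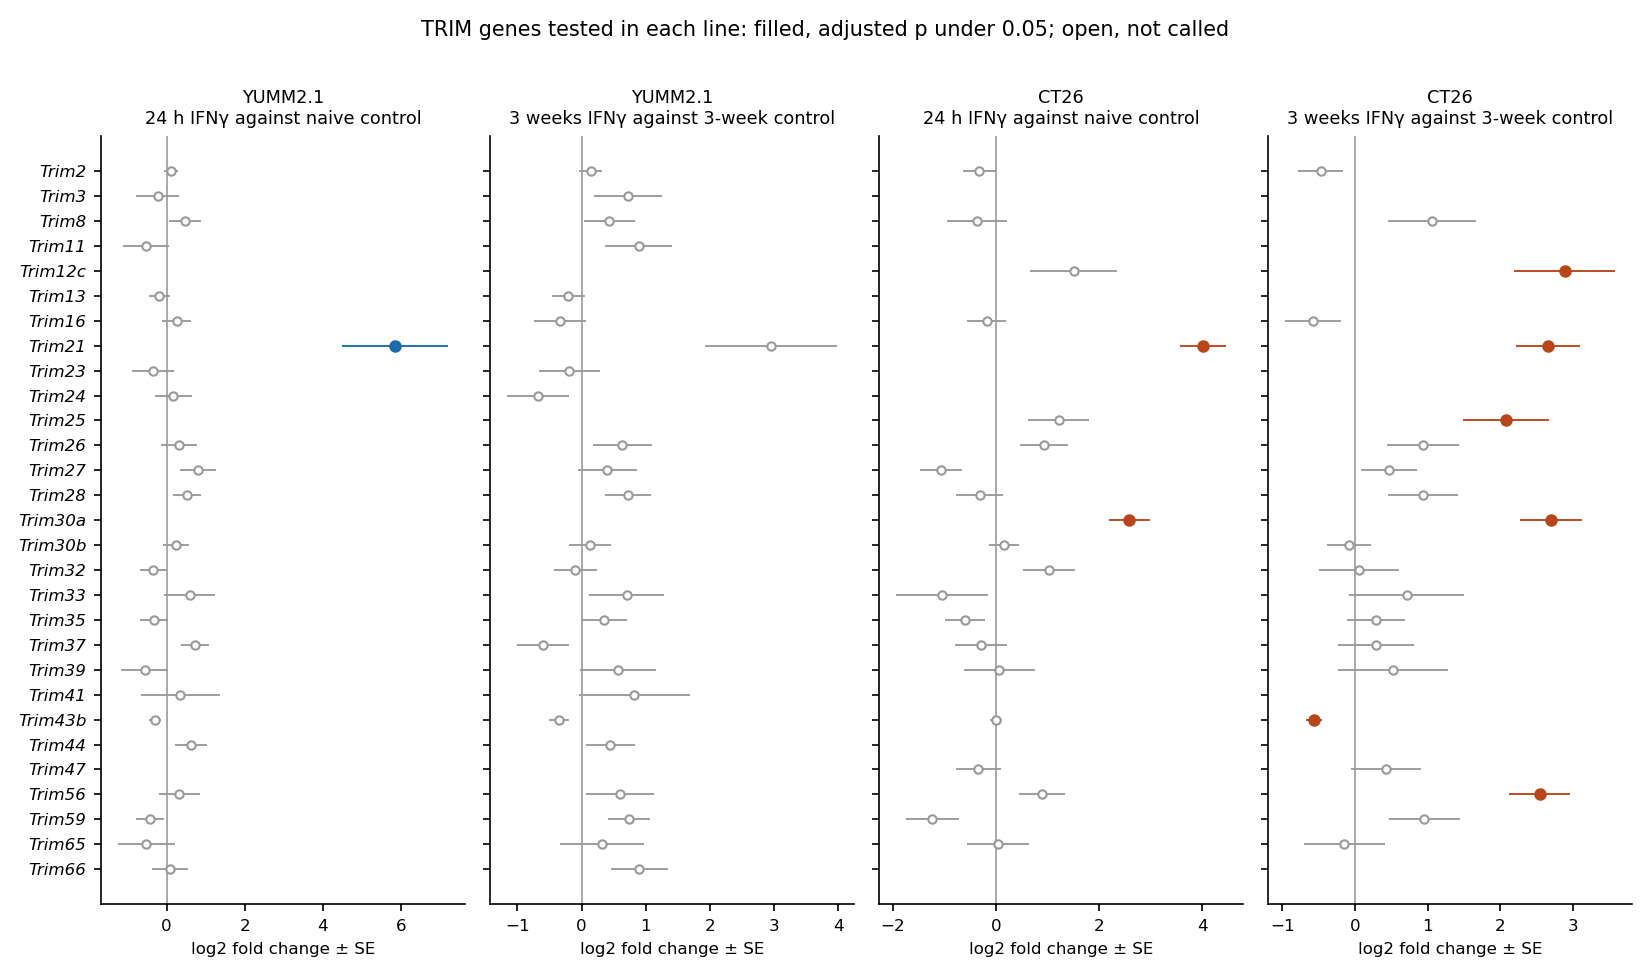
Log2 fold change with its SE of every tested TRIM gene at naive 24 h and after 3 weeks of IFNγ, for each line, with filled points where the adjusted p was under 0.05. At 3 weeks 5 genes were called higher and 1 lower in CT26 and none in YUMM2.1.

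Trim21, Trim30a, Trim30b, Trim12a, Trim12c, Trim34a, Trim6 and Trim68 all lie on mouse chromosome 7 and include relatives of the human TRIM5 group of viral restriction factors. Trim21 (chr7:102557921-102565486, minus strand, GRCm38), the cytosolic antibody receptor, gave the largest fold change of the tested TRIM genes in CT26 at 24 h. In the CT26 0-week controls it was at 0.709, 1.87 and 0.594 CPM, which was 1, 3 and 1 counts. After 2 h of IFNγ the 3 samples were at 9.04, 6.65 and 6.68 CPM, and after 24 h at 21.8, 25.5 and 12.6 CPM. No treated sample reached down to a control. The log2 fold change was 2.70 at 2 h (SE 0.48, adjusted p = 7.33e-04) and 4.02 at 24 h (SE 0.45, adjusted p = 6.11e-09, edgeR). The 2 h call rests on few counts and was lost without replicate 1 or replicate 3 (adjusted p 9.01e-04 to 0.299 over its alternatives), with log2 fold changes of 2.35 and 2.49. In bulk RNA a higher share of responding cells and more RNA per cell cannot be told apart, here and for every gene below.

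Under continuous IFNγ in CT26, Trim21 was called higher than its own-week controls after 2 and 3 weeks. After 1 week the IFNγ samples were at 6.42, 9.43 and 12.7 CPM against 3.67, 2.72 and 4.87 in the controls. These groups did not overlap, but the log2 fold change of 1.11 (SE 0.42, adjusted p = 0.583) missed the threshold, with a 1-week control mean of 3.75 CPM against 1.06 in the 0-week control. After 2 weeks the samples were at 11.6, 7.60 and 9.24 CPM against 2.21, 1.15 and 1.93, a log2 fold change of 2.31 (SE 0.47, adjusted p = 0.00157). After 3 weeks they were at 7.90, 18.04 and 13.4 CPM against 0.818, 2.22 and 2.46, a log2 fold change of 2.66 (SE 0.44, adjusted p = 3.33e-05). The 2-week call was lost without replicate 1 (adjusted p = 0.0957) or replicate 3 (0.061), with a range of 7.3e-04 to 0.0957 over its alternatives, and the 3-week call held in the 8 of 8 alternatives that tested it.

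After 3 weeks in CT26 no further rise of Trim21 on rechallenge was detectable. The samples were at 14.4, 21.1 and 15.4 CPM 2 h after rechallenge and at 22.0, 22.3 and 16.8 CPM after 24 h, against the 7.90 to 18.04 CPM of continuous IFNγ alone. The groups overlapped at both times. The 24 h rechallenge gave a log2 fold change of 0.67 (SE 0.33, adjusted p = 0.938). The difference between this and the naive 24 h response was -3.35 (SE 0.59, adjusted p = 1.53e-04), which compares responses from a different starting level: the 24 h levels themselves were 20.4 CPM after rechallenge and 20.0 CPM in naive cells. That difference was called in 9 of 9 alternatives.

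In YUMM2.1 Trim21 was not detected in the 0-week controls. All 3 had 0 counts. After 2 h of IFNγ the samples held 13, 2 and 7 counts (5.78, 1.46 and 5.19 CPM) and after 24 h 2, 8 and 9 counts (2.25, 8.20 and 3.82 CPM). Every treated sample was above every control. Set against a floor of 3 counts in each control library, Trim21 was at least 1.72-fold higher at 2 h (adjusted p = 0.0505, not called) and at least 1.97-fold higher at 24 h (adjusted p = 0.0142). The 24 h call was lost when any single replicate was left out, with adjusted p from 0.182 to 0.281. Its alternatives spanned 0.00492 to 0.281.

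Under continuous IFNγ Trim21 in YUMM2.1 was low and not called. The samples held 1.52, 1.11 and 0 CPM after 1 week, 0.653, 3.60 and 0 after 2 weeks and 3.67, 2.00 and 0 after 3 weeks. In each of these groups 1 sample was at 0, as were several controls, and at 3 weeks, where the controls held 2 counts in all, the adjusted p was 0.223. Rechallenge for 2 h gave 5.69, 10.1 and 7.68 CPM after 1 week, 13.8, 9.21 and 5.56 CPM after 2 weeks and 4.23, 13.0 and 6.49 CPM after 3 weeks. Each of these rechallenged groups lay above its unchallenged group, with log2 fold changes of 2.68 (adjusted p = 0.122), 3.04 (adjusted p = 0.0521) and 1.59 (adjusted p = 0.373), none of them past the threshold. At 24 h of rechallenge the samples were at 4.11, 3.87 and 5.32 CPM after 1 week, 7.77, 7.13 and 8.22 CPM after 2 weeks and 2.64, 0.624 and 1.73 CPM after 3 weeks. The first 2 of these groups lay above their unchallenged groups (1.88, adjusted p = 0.479, and 2.70, adjusted p = 0.15), and the one after 3 weeks overlapped its own (-0.68, adjusted p = 1.0). The naive 24 h response of Trim21 was not shown to differ between the lines (difference in log2 fold change 1.57, SE 1.06, adjusted p = 0.768).

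**Figure D2:**
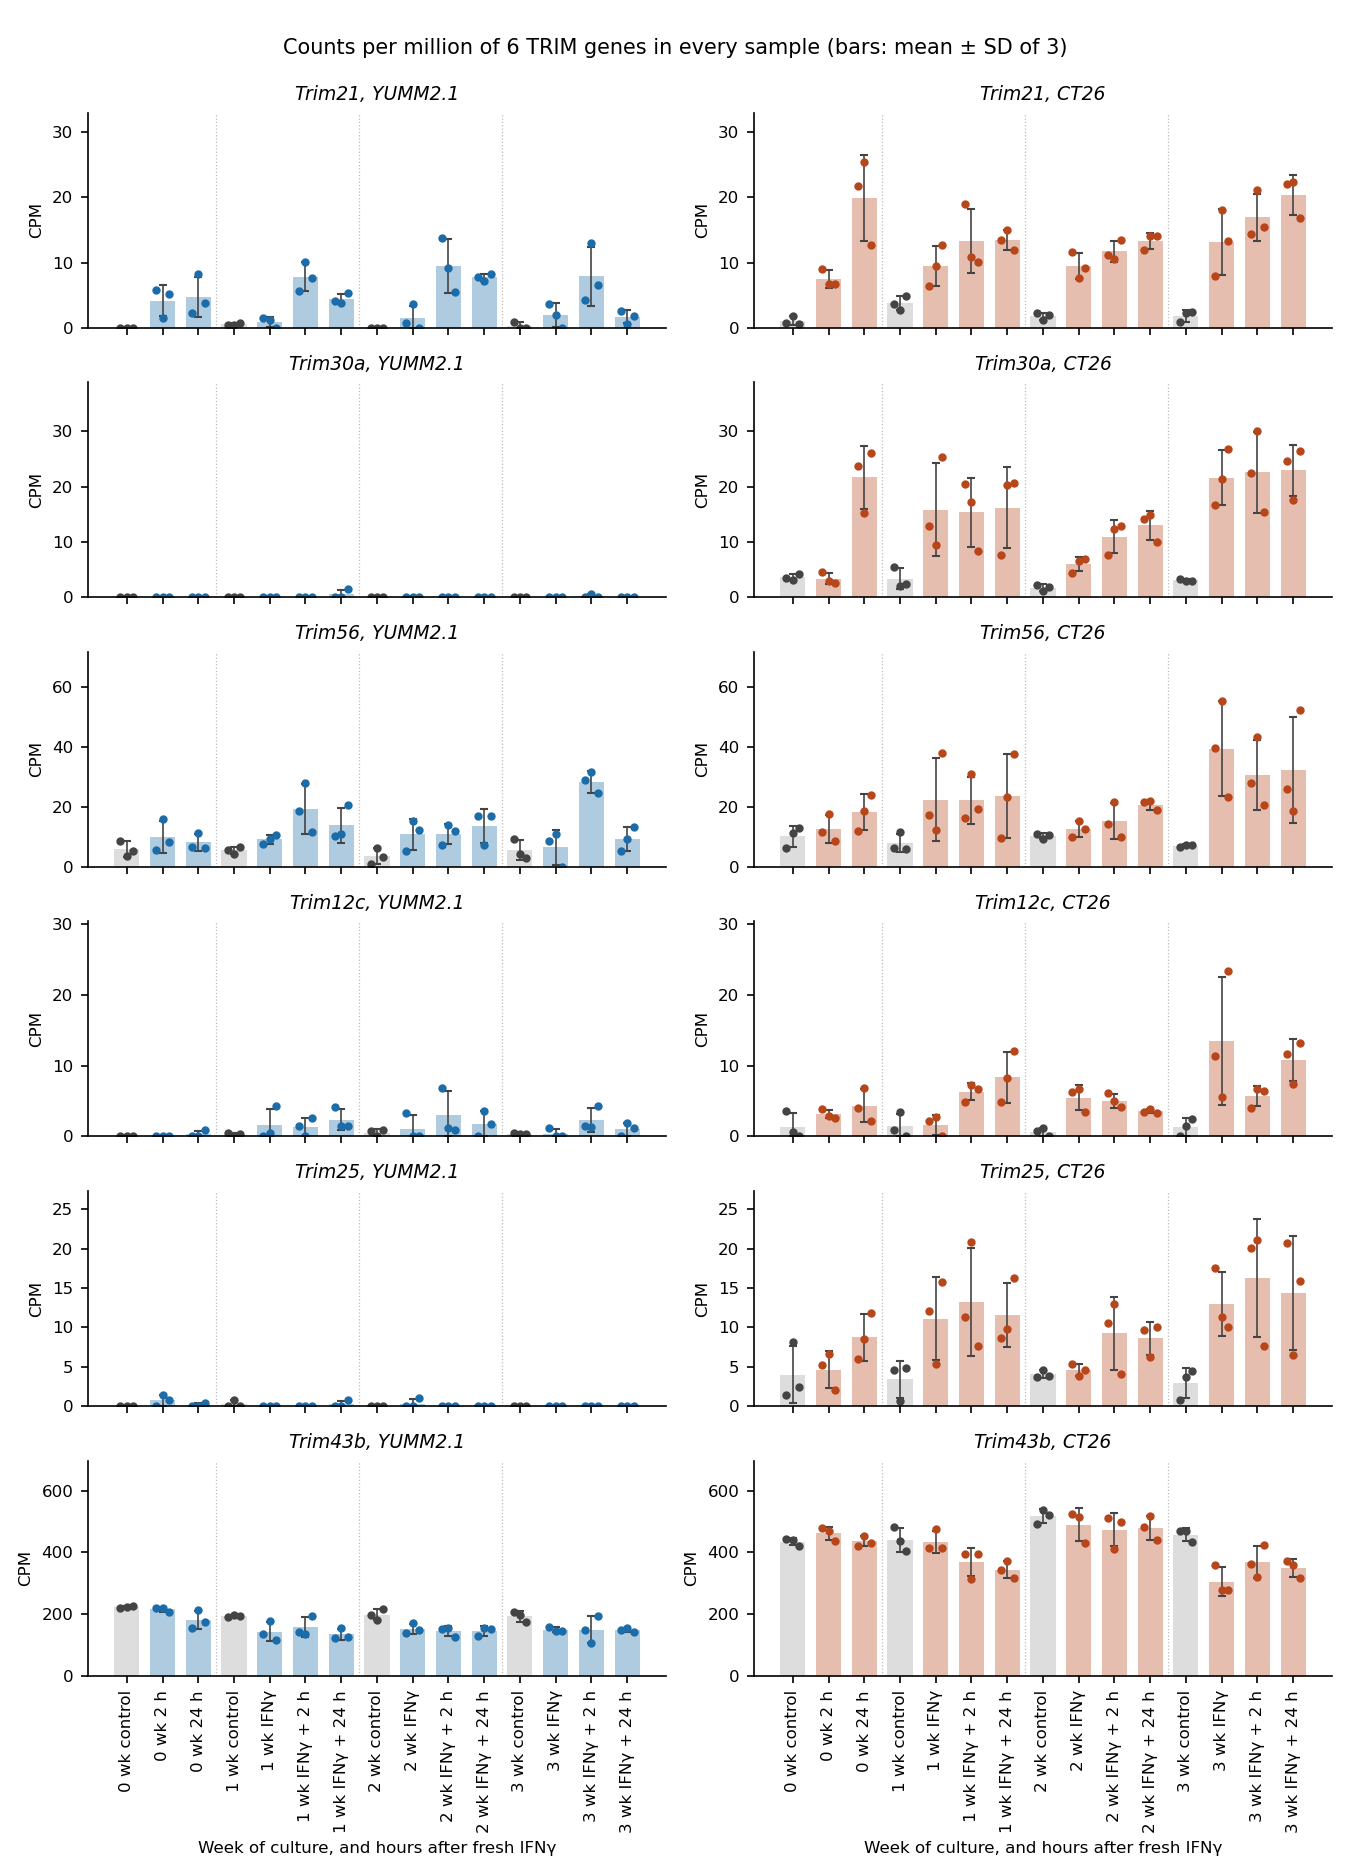
CPM of Trim21, Trim30a, Trim56, Trim12c, Trim25 and Trim43b in every sample of both lines, by group along the time course, with bars at the mean and its SD over 3 replicates. In CT26 Trim21 was near 1 CPM in the 0-week controls and at 12.6 to 25.5 CPM after 24 h of IFNγ, and Trim30a and Trim25 were almost without counts in YUMM2.1.

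Trim30a (chr7:104409025-104465193, minus strand), an inhibitor of NF-κB and inflammasome signalling in mouse cells, rose in CT26 at 24 h but was not called at 2 h. The 0-week controls were at 3.55, 3.12 and 4.16 CPM. After 2 h the samples were at 4.52, 2.95 and 2.67 CPM and overlapped the controls (log2 fold change -0.09). After 24 h they were at 23.8, 15.3 and 26.0 CPM, all above the controls. The log2 fold change was 2.59 (SE 0.40, adjusted p = 9.89e-06) and was called in 9 of 9 alternatives.

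After 1 week of IFNγ Trim30a in CT26 was at 12.8, 9.43 and 25.3 CPM against 5.50, 2.04 and 2.44, a log2 fold change of 2.14 (SE 0.45, adjusted p = 0.00446). The highest of these is the shallow sample, and without it the log2 fold change was 1.85 (adjusted p = 0.046). The call was lost without replicate 2 (adjusted p = 0.116) or 3 (0.326) or with only the groups compared in the fit (0.11). After 2 weeks the samples were at 4.47, 6.65 and 6.93 CPM against 2.21, 1.15 and 1.93, which did not overlap but gave an adjusted p of 0.157 (log2 fold change 1.68, SE 0.57). After 3 weeks they were at 16.7, 21.4 and 26.8 CPM against 3.27, 2.95 and 2.95, a log2 fold change of 2.70 (SE 0.43, adjusted p = 1.32e-05) called in 9 of 9 alternatives.

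On rechallenge after 3 weeks Trim30a in CT26 was at 22.5, 29.98 and 15.4 CPM after 2 h and 24.6, 17.7 and 26.5 CPM after 24 h. Both groups overlapped the 16.7 to 26.8 CPM of continuous IFNγ. The difference between the 24 h responses after 3 weeks and in naive cells was -2.42 (SE 0.53, adjusted p = 0.00471). Its call was lost when any single replicate was left out (adjusted p 0.00648 to 0.224 over its alternatives). It compares responses from different starting levels, and the 24 h samples after rechallenge overlapped those of naive cells. In YUMM2.1 Trim30a had 3 counts over all 45 samples and was not tested under IFNγ. Near its 3′ ends 31.5% of the 31-base words of Trim30a occur in other genes, 28.9% in Trim30d, so counts may have been divided between them.

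Trim12c (chr7:104338754-104353362, minus strand), a mouse relative of TRIM5, was low in CT26 without IFNγ. After 3 weeks of IFNγ it was at 11.4, 5.64 and 23.4 CPM, or 13, 5 and 7 counts, against 0, 1.48 and 2.46 CPM in the controls. The groups did not overlap, and the log2 fold change was 2.89 (SE 0.70, adjusted p = 0.00572). Without replicate 1 it was 2.48 with an adjusted p of 0.154 (0.00222 to 0.154 over its alternatives). At 24 h the log2 fold change of 1.51 missed the threshold (adjusted p = 0.513), and at 2 weeks, with 20 counts against 2, the adjusted p was 0.11. Trim12c shares 30.9% of its 3′ words with other genes, 20.7% with Trim5. In YUMM2.1 its 71 counts over 45 samples were too few to test.

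Trim30b (chr7:104355382-104369884, minus strand) lies beside Trim30a and Trim12c and shares none of its 3′ words with other genes. Its 0-week controls in CT26 were at 44.0, 44.3 and 59.4 CPM and its 24 h samples at 39.6, 71.3 and 53.5 CPM. The groups overlapped, as they did after 3 weeks, with log2 fold changes of 0.16 (adjusted p = 0.903) and -0.08 (adjusted p = 0.916). In YUMM2.1 the corresponding values were 0.23 and 0.12. The sign of these small values depended on the scaling and on single replicates. Of the 4 genes of the chromosome 7 group that could be tested in CT26, 2 rose at 24 h and 3 at 3 weeks, beside the 1.77% and 3.44% of all genes called higher, with Trim30b the one that did not pass at either time. Trim12a, Trim34a, Trim6 and Trim68 were too low to test in either line. Trim21, Trim30a and Trim12c reached at most 4.87, 5.50 and 3.5 CPM in any CT26 control. They passed the filter on low counts through their IFNγ samples, so the shares of 2 of 4 and 3 of 4 depend on that filter.

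Of the members known for innate immune signalling, Trim56 (chr5:137105644-137116209, minus strand), which acts in STING and TLR3 signalling, was called in CT26 after 3 weeks and at no earlier time. Its 0-week controls were at 6.38, 11.2 and 13.1 CPM and its 24 h samples at 11.9, 18.7 and 23.8 CPM, which overlapped (log2 fold change 0.89, SE 0.44, adjusted p = 0.435). After 1 week the samples were at 17.1, 12.1 and 37.9 CPM against 6.42, 11.5 and 5.85, which did not overlap but missed the threshold (log2 fold change 1.27, adjusted p = 0.433). After 3 weeks they were at 39.5, 55.2 and 23.4 CPM against 6.55, 7.38 and 7.37, and the lowest treated sample was above the highest control. The log2 fold change was 2.54 (SE 0.42, adjusted p = 3.37e-05) and was called in 9 of 9 alternatives. It was 2.71 without the shallow samples. Rechallenge after 3 weeks gave 28.1, 43.3 and 20.5 CPM at 2 h and 25.9, 18.6 and 52.1 CPM at 24 h, overlapping the unchallenged samples.

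In YUMM2.1 Trim56 was called on rechallenge after 3 weeks. The unchallenged samples were at 8.55, 11.01 and 0 CPM, the last of them the shallow library, and 2 h of fresh IFNγ gave 28.9, 31.7 and 24.5 CPM. The groups did not overlap. The log2 fold change was 1.77 (SE 0.47, adjusted p = 0.0472), and it was the 1 TRIM gene of 25 called there, where 0.876% of all genes rose and 0.209% fell. Without the shallow sample the value was 1.55 and the call was lost (adjusted p = 0.138), as it was without any single replicate, with adjusted p from 0.124 to 0.338 (0.00757 to 0.338 over all alternatives). After 24 h of rechallenge Trim56 was at 5.28, 9.36 and 13.2 CPM. Under continuous IFNγ its largest value in YUMM2.1 was a log2 fold change of 1.68 at 2 weeks (SE 0.58, adjusted p = 0.243).

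Trim25 (chr11:88999376-89020293, plus strand), the ligase of RIG-I, was called in CT26 after 3 weeks. The controls were at 0.818, 3.69 and 4.42 CPM and the IFNγ samples at 17.6, 11.3 and 10.0 CPM, with no overlap. The 10.0 CPM is the shallow sample and rests on 3 counts. The log2 fold change was 2.08 (SE 0.59, adjusted p = 0.021). Over all CT26 controls Trim25 had a median of 3.77 CPM and at most 8.12 CPM. It entered the test through IFNγ samples, so its place among the genes tested depends on the filter on low counts. Replicate 1 holds the lowest control and the highest treated value, and without it the log2 fold change was 1.39 (adjusted p = 0.389, range 0.00532 to 0.389 over its alternatives). At 24 h Trim25 had a log2 fold change of 1.21 (adjusted p = 0.434) and at 1 week 1.59 (adjusted p = 0.486). In YUMM2.1 it had 9 counts over all 45 samples and could not be tested.

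The RIG-I pathway in which Trim25 acts was measured in the same fits. Of 11 genes listed for it, 9 passed the filter on low counts in CT26 and 8 in YUMM2.1. That filter also takes in the IFNγ samples, so the shares below depend on it. Of 9 tested genes of this pathway 4 rose in CT26 at 24 h, where 1.77% of all genes were called higher: Ddx58, which encodes RIG-I, by a log2 fold change of 3.04, Ifih1, the sensor MDA5, by 2.40, Irf7 by 3.79 and Isg15 by 3.14. After 3 weeks 5 of 9 rose, beside 3.44% of all genes, Ddx58 by 2.30, Ifih1 by 3.41, Irf7 by 4.76, Isg15 by 3.27 and Zc3hav1 by 1.80. In YUMM2.1 0 of 8 were called at either time by edgeR, where 0.855% of all genes were called higher at 24 h and 0.97% in either direction at 3 weeks. The log2 fold changes there were 3.28 for Isg15 (SE 1.01, adjusted p = 0.183) and 2.48 for Ifih1 (SE 0.86, adjusted p = 0.329) at 24 h, and 2.79 (adjusted p = 0.189) and 2.47 (adjusted p = 0.298) after 3 weeks. Both genes had an unadjusted p under 0.05 at both times, as did Rnf135 at 24 h. Of 7 tested E2 enzymes, the partners of RING ligases, 0 were called in CT26 at 24 h and 1, Ube2d3, fell after 3 weeks by 0.38 on the log2 scale, beside 0.27% and 3.79% of all genes called lower at these times.

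The other innate members that could be tested did not pass in either line under IFNγ. Trim11, Trim13 and Trim41 were too low to test in CT26. Trim26 (chr17:36837134-36859398, plus strand), a ligase of the MHC region, had CT26 24 h samples at 7.92, 10.2 and 10.4 CPM against 2.13, 5.62 and 7.13 in the controls. These groups did not overlap, with a log2 fold change of 0.93 at 24 h (adjusted p = 0.451) and 0.94 at 3 weeks (adjusted p = 0.263). In YUMM2.1 the values of Trim26 were 0.32 and 0.63. Trim8, a regulator of cytokine signalling, had a log2 fold change of 1.07 in CT26 after 3 weeks (adjusted p = 0.302), and Trim59 had -1.23 at 24 h (adjusted p = 0.308) and 0.96 after 3 weeks (adjusted p = 0.239).

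Trim27, a nuclear and cytosolic ligase first known as Rfp, had values of opposite sign in the lines at 24 h. In CT26 the 0-week controls were at 12.8, 15.6 and 21.4 CPM and the 24 h samples at 5.94, 11.9 and 6.69 CPM. In YUMM2.1 the controls were at 6.00, 14.7 and 10.3 CPM and the 24 h samples at 15.7, 18.5 and 16.97 CPM. Every treated sample lay below its controls in CT26 and above them in YUMM2.1. Neither response passed the threshold, with a log2 fold change of -1.07 in CT26 (SE 0.40, adjusted p = 0.234) and 0.81 in YUMM2.1 (SE 0.46, adjusted p = 0.795). The difference between the lines was 1.86 (SE 0.63, adjusted p = 0.478), and of 28 TRIM genes 0 were called in that test, where 0.087% of all genes were called in either direction. At an unadjusted p under 0.05 there were 2 TRIM genes, beside 8.2% of all genes, and DESeq2 called 0.

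The TIF1 members are nuclear corepressors with PHD and bromo domains, and of these Trim28 (KAP1) silences retroelements with KRAB zinc finger proteins. None of the 4, Trim24, Trim28, Trim33 and Trim66, was called under IFNγ by edgeR where it could be tested, which was all 4 in YUMM2.1 and Trim28 and Trim33 alone in CT26. Trim28 was at 14.7, 21.4 and 23.1 CPM in the CT26 3-week controls and at 34.3, 57.5 and 10.0 CPM after 3 weeks of IFNγ. The groups overlapped through the shallow sample, which held 3 counts. The log2 fold change was 0.94 (SE 0.48, adjusted p = 0.239), and without a filter on low counts Trim28 passed the threshold (0.90, adjusted p = 0.038). In YUMM2.1 it was at 52.5, 65.1 and 49.1 CPM after 3 weeks against 36.0, 40.2 and 26.9 in the controls, without overlap (0.72, adjusted p = 0.474). Trim33, a SMAD4 ligase, had log2 fold changes of -1.05 at 24 h and 0.71 at 3 weeks in CT26, and 0.59 and 0.70 in YUMM2.1. Trim24, a coregulator of nuclear receptors, had 0.17 and -0.68 in YUMM2.1.

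The NHL members Trim2, Trim3 and Trim32, ligases known mostly from nerve and muscle, were not called under IFNγ, and Trim3 was too low to test in CT26. Trim32 in CT26 was at 6.38, 3.75 and 7.13 CPM in the 0-week controls and at 17.8, 5.10 and 12.6 CPM at 24 h, which overlapped (log2 fold change 1.03, adjusted p = 0.434), and its 3-week value was 0.06. Trim2 in CT26 was at 15.8, 19.2 and 10.0 CPM after 3 weeks against 19.6, 24.4 and 23.1, without overlap (-0.48, adjusted p = 0.372). Its 10.0 CPM is the shallow sample and rests on 3 counts.

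Trim43b (chr9:89084624-89092835, minus strand), a member of a group known from early embryos, had the highest level of the TRIM genes in both lines, with a control median of 197.3 CPM (YUMM2.1) and 455.6 CPM (CT26). In CT26 the 3-week controls were at 468.9, 468.1 and 433.5 CPM and the 3-week IFNγ samples at 360.1, 276.2 and 277.6 CPM. The groups did not overlap. Trim43b fell by 0.56 on the log2 scale (SE 0.12, adjusted p = 9.69e-04). Without replicate 2 the value was -0.46 with an adjusted p of 0.0881 (2.2e-04 to 0.0881 over its alternatives). The log2 fold change ran from -0.70 to -0.37 over these alternatives, and at naive 24 h it was 0.00. Rechallenge after 3 weeks gave 0.25 at 2 h and 0.18 at 24 h against the unchallenged samples, neither called.

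In YUMM2.1 Trim43b was at 153.9, 213.2 and 173.9 CPM at 24 h against 219.3, 223.4 and 225.9 in the controls, and at 157.6, 145.1 and 143.7 CPM after 3 weeks against 205.9, 197.2 and 172.7. The groups did not overlap at 24 h or after 1, 2 or 3 weeks. The log2 fold changes of -0.31, -0.40, -0.38 and -0.35 had adjusted p of 0.695, 0.523, 0.447 and 0.385. Of the 31-base words near the 3′ ends of Trim43b, 47.2% also occur in other genes, 336 in all, and 32.8% in Trim43a. Over all samples Trim43a had 5 counts and Trim43c, which also shares words, had 1. The counts of Trim43b cannot be given to that gene alone.

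**Figure D3:**
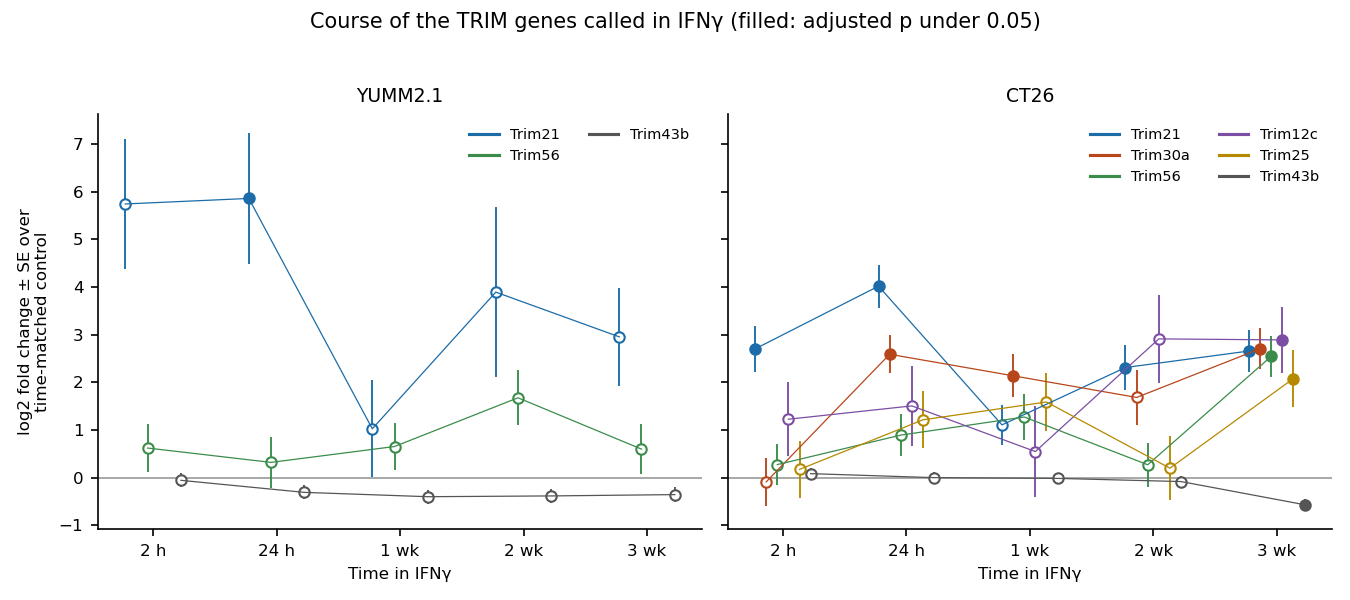
Log2 fold change with its SE against the control of the same week, at 2 h, 24 h and 1, 2 and 3 weeks of IFNγ, for the TRIM genes drawn, in each line. In CT26 Trim21 was at 2.70 and 4.02 at 2 h and 24 h and Trim56 reached 2.54 at 3 weeks.

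By groups that did not overlap, 7 TRIM genes of 21 were higher and 2 lower in CT26 after 3 weeks, where 11.9% and 12.1% of all genes were. At 24 h in CT26 3 were higher and 2 lower, beside 7.97% and 9.24% of all genes. These counts depend on the filter on low counts, as the calls do. In YUMM2.1 3 of 25 were higher and 1 lower at 24 h, beside 6.98% and 5.55%, and 4 and 1 after 3 weeks, beside 8.08% and 11.8%.

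Rechallenge was compared with the unchallenged cells of the same week. In CT26 0 of 21 TRIM genes were called by edgeR after 2 h or 24 h of fresh IFNγ, at 1 week (0.376% and 1.32% of all genes called), 2 weeks (0.305% and 0.658%) or 3 weeks (0.0117% and 0%). In the order given, 2, 2, 2, 1, 1 and 0 TRIM genes had an unadjusted p under 0.05, beside 8.16%, 9.36%, 7.1%, 7.16%, 7.26% and 5.16% of all genes, and DESeq2 also called 0. In YUMM2.1 the only call was Trim56 at 3 weeks and 2 h, and the other 5 rechallenges gave 0 of 25, where 0.615% and 1.42% of all genes were called at 1 week, 0.428% and 0.615% at 2 weeks and 0% at 24 h after 3 weeks. There 2, 2, 2, 3 and 0 TRIM genes had an unadjusted p under 0.05, beside 11.1%, 9.25%, 5.87%, 6.02% and 3.66% of all genes, and DESeq2 called 1, Trim21 at 2 h after 2 weeks. For the difference between the 24 h responses after 3 weeks and in naive cells, 2 of 21 TRIM genes were called in CT26, Trim21 and Trim30a. Both were lower, beside 1.09% of all genes called lower and 0.106% called higher, and the responses start from different levels. In YUMM2.1 0 of 25 were called, beside 0.615%, with 1 at an unadjusted p under 0.05 (6.65% of all genes) and 0 by DESeq2.

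Without IFNγ, 3 weeks of culture changed no TRIM gene past the threshold of edgeR in either line, where 0.916% of all genes in CT26 and 0.521% in YUMM2.1 were called. DESeq2 also called 0, and 4 genes in CT26 and 0 in YUMM2.1 had an unadjusted p under 0.05, beside 12% and 8.33% of all genes. The median log2 fold change of the TRIM genes was -0.33 in CT26 and 0.06 in YUMM2.1. In CT26 Trim28 was at 14.7, 21.4 and 23.1 CPM at 3 weeks against 31.9, 44.97 and 38.0 at 0 weeks (log2 fold change -0.93, adjusted p = 0.392). Trim27, Trim47 and Trim59 had values of -0.71, -0.84 and -0.94.

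The lines were also compared without IFNγ. Among 28 TRIM genes tested over the 12 controls of each line, 11 were higher and 9 lower in YUMM2.1, where 41.2% and 27.8% of all genes were, so that the share called is near that of the table. The median of all genes was 0.20 on the log2 scale and 0.40 with library totals alone. The CPM ranges below were scaled within each line, whereas the fold changes come from the joint fit of both lines. Ranges of the lines are therefore not on a common scale, which matters where they lie close. The culture line and everything else that differs between them cannot be told apart.

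**Figure D4:**
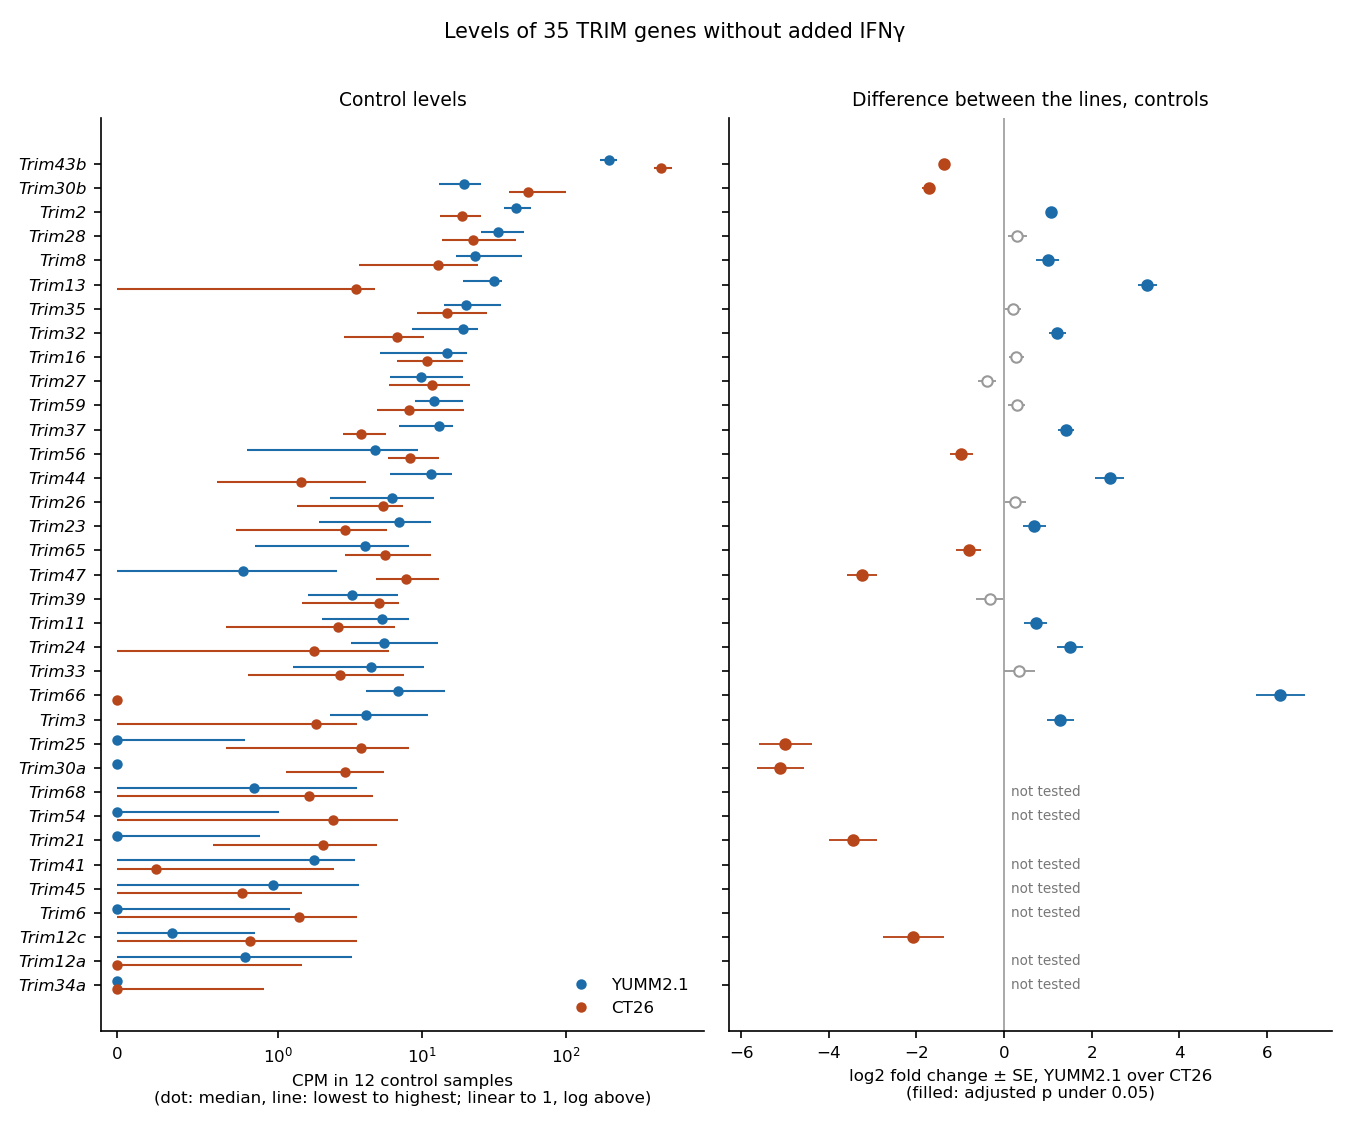
Lowest, median and highest CPM of the 35 TRIM genes in the 12 control samples of each line, and the log2 fold change with its SE of YUMM2.1 over CT26 for the 28 that were tested. Trim43b stands highest in both lines, and Trim66 and Trim30a are at 0 in all controls of CT26 and YUMM2.1 respectively.

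All 4 tested genes of the chromosome 7 group were lower in YUMM2.1. Trim21, Trim30a and Trim12c, at most 4.87, 5.50 and 3.5 CPM in any CT26 control, passed the filter on low counts through IFNγ samples. The 4 of 4 therefore depends on that filter. Among the untested members the mean control CPM was higher in YUMM2.1 for Trim12a (0.985 against 0.461). It was lower for Trim6 (0.135 against 1.64), Trim34a (0 against 0.169) and Trim68 (1.15 against 1.86). Trim30a had 0 counts in the 12 YUMM2.1 controls and at most 5.50 CPM, median 2.95, in CT26, which puts it at least 1.57-fold lower. Trim30b was at 13.1 to 25.7 CPM, median 19.6, against 39.8 to 98.9 CPM, median 54.1, with a log2 fold change of -1.72 (SE 0.14, adjusted p = 3.54e-18). Trim21 was at 0 to 0.888 CPM against 0.594 to 4.87 CPM (-3.45, SE 0.54, adjusted p = 5.04e-08). Trim12c gave -2.07 (SE 0.70, adjusted p = 0.00677) and was lost without replicate 1 (0.081) or replicate 2 (0.184), with a range of 0.00282 to 0.184.

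Of the innate members tested 3 were higher and 3 lower. Trim25 had 2 counts over the YUMM2.1 controls and 63 over those of CT26 (adjusted p = 1.08e-10). It too passed the filter on low counts through IFNγ samples of CT26. Trim13, an endoplasmic reticulum ligase, was at 19.3 to 35.8 CPM in YUMM2.1 and 0 to 4.75 CPM in CT26, without overlap (3.27, SE 0.21, adjusted p = 1.1e-23). It lies opposite Dleu2, and whether the counting used strand is not given in the sources used here. Trim56 was lower in YUMM2.1 (-0.98, SE 0.26) although the samples overlapped, as they did for Trim65 (-0.81), while Trim8 (0.99) and Trim11 (0.72) were higher. The calls of Trim11 and Trim65 held in 5 and 7 of 9 alternatives, with adjusted p up to 0.175 and 0.144.

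All 3 NHL members were higher in YUMM2.1, Trim2 by 1.07 (SE 0.11), Trim3 by 1.29 (SE 0.31) and Trim32 by 1.22 (SE 0.20). Trim2 was at 37.0 to 57.2 CPM in YUMM2.1 and 13.3 to 25.7 CPM in CT26, without overlap. Of the 4 TIF1 members 2 were higher: Trim24 by 1.502 (SE 0.31) and Trim66 (chr7:109449006-109508134, minus strand), a factor known from male germ cells, which was at 4.09 to 14.6 CPM in all YUMM2.1 controls and had 0 counts in all CT26 controls, at least 3.39-fold higher. Trim28 (0.30, 95% interval -0.11 to 0.72) and Trim33 (0.35, interval -0.36 to 1.06) were not called.

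Of the remaining members Trim44 was at 6.02 to 16.2 CPM in YUMM2.1 and 0.625 to 4.07 CPM in CT26 (2.41, SE 0.32), and Trim37, a ligase of centrosome control, at 6.89 to 16.3 against 2.84 to 5.62 CPM (1.41, SE 0.19). Neither pair of ranges overlapped on these within-line scales. Trim23 was higher by 0.69 (SE 0.26), a call that held in 5 of 9 alternatives (adjusted p up to 0.345). Trim47 was at 0 to 2.58 CPM against 4.82 to 13.1 CPM (-3.25, SE 0.34), and Trim43b at 172.7 to 225.9 against 402.6 to 538.0 CPM (-1.37, SE 0.07), again without overlap. After Trim43b the order of control medians in YUMM2.1 was Trim2 (45.2 CPM), Trim28 (33.5), Trim13 (31.7) and Trim8 (23.4), and in CT26 Trim30b (54.1), Trim28 (22.6), Trim2 (19.0) and Trim35 (15.02). Neighbours in these orders overlapped in range, apart from Trim43b, whose lowest value was above the highest value of every other TRIM gene in its line.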

How the data were processed

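The 3′ digital gene expression counts of 90 samples were deposited as a table of whole-number counts per gene. The submitters' processing notes name Salmon 0.13.1 and mm10, and the study's methods name tximport; the annotation release and any use of molecular identifiers are not given in the sources used here. All 45 samples of each line were kept: the study's methods state that some samples of these lines were discarded as outliers, the labels do not identify them, and the values here include them. Symbols were matched by Ensembl number to GENCODE M21 for 53668 of 53697 IDs. Genes passing filterByExpr by group (9589 in YUMM2.1, 8516 in CT26, 10339 over both) were TMM-scaled and tested with edgeR 4.0.16 (glmQLFit and glmQLFTest, R 4.3.3), with 15 groups a line in 1 fit and both lines in 1 fit for contrasts between them. P-values were adjusted by Benjamini-Hochberg over all genes tested, with a threshold of 0.05, and the SE is the absolute log2 fold change over the square root of F. Folds against groups at 0 are bounds from a floor of 3 counts per library, which covers counting error only. Promoter windows came from RefSeq on GRCm38.p6. Alternatives were DESeq2 1.42.0, library totals, no filter, only the groups compared, a replicate block, leaving out each replicate, and dropping the 3 samples below 25% of their line's median depth. The steps were tested on simulated data. The members, the lists and the words searched were chosen with earlier results of these data known. Genes named with values are those called in any comparison within a line, up to 5 in each direction between the lines, the 5 highest in each line's 0-week control, and Trim24, Trim25, Trim27, Trim28, Trim32 and Trim33. Trim30b falls under this rule by its control level and Trim47 by its difference between the lines. Trim2, Trim3, Trim30b and Trim47 by their change, and Trim11, Trim12a, Trim23, Trim26, Trim34a, Trim59 and Trim65, were added after their values were seen.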

Additional observations from a re-analysis of the deposited data

Results flagged for a closer look

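In CT26 the 24 h response to IFNγ differed between cells after 3 weeks and naive cells for Trim21 and Trim30a. The difference in log2 fold change was -3.35 for Trim21 and -2.42 for Trim30a, each from the test of the difference itself. For each gene it compares responses from different starting levels, and the 24 h levels themselves overlapped between rechallenged and naive cells. The Trim30a call was lost when any single replicate was left out, with adjusted p up to 0.224. For Trim27 every YUMM2.1 sample at 24 h lay above its controls (log2 fold change 0.81) and every CT26 sample lay below its own (-1.07). The difference between the lines, 1.86, did not pass the threshold (adjusted p = 0.478).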

How the results depend on the processing

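Of the counts of TRIM genes called, 223 alternative values were within 1.5 times the reported count and 29 were not. No filter gave 1 in place of 0 for YUMM2.1 after 2 h, at 2 h of rechallenge after 2 weeks and for the difference of 24 h responses, each Trim21, and 1 for the 3-week CT26 controls against 0 weeks, Trim28. DESeq2 gave 1 for the YUMM2.1 2 h rechallenge after 2 weeks. With only the groups compared the count was 0 for YUMM2.1 at 24 h, CT26 at 2 h and CT26 after 2 weeks, where Trim21 was then too low to test, 0 for CT26 after 1 week and for YUMM2.1 rechallenged for 2 h after 3 weeks, and 1 for the CT26 controls. Leaving out a replicate gave 0 for YUMM2.1 at 24 h and at 2 h of rechallenge after 3 weeks, 0 to 1 for YUMM2.1 at 2 h of rechallenge after 2 weeks and for CT26 at 2 h, 1 week and 2 weeks, and 1 for the CT26 difference of responses. The labels do not say whether replicate numbers pair the samples. Same-numbered samples of different groups correlated at a mean of -0.0010 in YUMM2.1 and 0.0080 in CT26. Different numbers gave 0.00065 and -0.0040. Of same-numbered pairs 24 of 315 in YUMM2.1 and 44 of 315 in CT26 were above 0.1, at most 0.372 and 0.382. This does not exclude pairing in some groups. The replicate block changed only the YUMM2.1 2 h rechallenge after 3 weeks, to 0, as did leaving out shallow samples. Causes were not tested beyond the filter. Of named fold changes 694 kept direction and side of the threshold, 8 lost and 4 gained the call with the same direction, and 30, none of them called, changed sign. Over the fits without a replicate, the 24 h values in YUMM2.1 ran from -0.51 to 0.066 for Trim13, -0.36 to 0.80 for Trim30b, -0.74 to 0.061 for Trim32, -0.15 to 0.84 for Trim56 and -0.41 to 0.38 for Trim66. At 3 weeks there they ran from -0.65 to 0.036 for Trim13, -1.10 to 0.014 for Trim24, -0.27 to 0.42 for Trim30b, -0.32 to 0.088 for Trim32, -1.07 to 0.017 for Trim37 and -0.0019 to 0.87 for Trim8. Without shallow samples Trim30b was -0.22 and Trim32 0.075. At 24 h in CT26 they ran from -0.77 to 0.042 for Trim2, -0.10 to 0.35 for Trim30b and -0.017 to 0.031 for Trim43b, which was -0.019 with library totals, -0.047 without filter and -0.0035 with only the groups compared. At 3 weeks in CT26 they ran from -0.56 to 0.39 for Trim30b, -0.23 to 0.62 for Trim32, -0.64 to 1.37 for Trim33, -0.30 to 0.74 for Trim35 and -0.24 to 0.92 for Trim47. Trim30b was 0.012 with DESeq2 and 0.12 with library totals, and Trim32 -0.47 without shallow samples. Depth limits the low genes most: 10 of the 35 could not be tested in YUMM2.1 and 14 in CT26.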

Other observations

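Trim12a, a relative of Trim12c that was too low to test, had 2, 8 and 14 counts in YUMM2.1 at 24 h of rechallenge after 1 week and 2, 9 and 12 counts at 24 h of rechallenge after 2 weeks. The means of these groups were 6.29 and 6.34 CPM, against 0.522 and 2.04 CPM in the unchallenged cells of the same week, and single controls reached 3.27 CPM. Of its 3′ words 17.5% occur in other genes. Trim34a had 0 counts in all 12 YUMM2.1 controls and 44 counts over the 45 samples, and 23.9% of its 3′ words also occur in Trim34b. Over both lines Trim34a had 102 counts, of which the 12 CT26 controls held 3. It passed the minimum count for inclusion through its IFNγ samples, so its absence from the YUMM2.1 controls depends on that choice and no response was tested.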
